A study of Mus musculus with 4 samples.

Results

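The stress-activated MAP kinase cascade relays signals through 3 tiers of kinases, and 35 mouse genes of this cascade were examined for phosphorylation of histone H3 at serine 10 (H3S10ph) in skeletal muscle. They comprised 8 MAP3 kinases, 7 MAP2 kinases, 9 MAP kinases, 6 downstream kinases that include the H3S10 kinases MSK1 (*Rps6ka5*) and MSK2 (*Rps6ka4*), and 5 dual-specificity phosphatases, out of 21911 protein-coding genes. A gene counted as marked when a deposited H3S10ph peak overlapped it by at least 1 bp between its annotated start and end. The genes were chosen by their role in the pathway, with earlier results of these data known.

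Each tier of the cascade phosphorylates and thereby activates the next: MAP3 kinases act on MAP2 kinases, which act on the MAP kinases of the p38, JNK and ERK families. Active p38 and ERK switch on MSK1 and MSK2, nuclear kinases that phosphorylate H3S10 at promoters of immediate early genes, and dual-specificity phosphatases remove the activating phosphates from the MAP kinases. In muscle, p38 and JNK are known to respond to contraction and mechanical load. The comparison below asks whether the genes encoding this machinery themselves carried more H3S10ph after contraction.

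H3S10ph was profiled by chromatin immunoprecipitation and sequencing (ChIP-seq) in gastrocnemius muscle of male C57BL/6 mice aged 5 months, with 2 samples per condition, each a pool of muscle from 6 mice. Stimulated muscles performed 50 eccentric contractions under anaesthesia, driven through the sciatic nerve by trains of 600 ms at 100 Hz every 30 s while the foot was moved through 30° at 40 mm/s, and were taken directly afterwards. Unstimulated muscles came from the contralateral leg, so that both conditions shared the anaesthesia and differed in the contractions and, as far as the methods say, in the surgery that placed the nerve electrodes. Whole muscle was used, and fewer nuclei of a cell type and less H3S10ph per nucleus cannot be told apart.

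The 4 peak lists differed in length, with 9094 and 32740 peaks in the unstimulated and 10901 and 40683 in the stimulated samples (replicates 1 and 2), and the difference between replicates exceeded that between conditions. Read depth is unknown from these files. The unstimulated replicate 1 list stood apart in having 522 peaks on chromosome X, where the other lists had 16 to 19, and none on chromosome Y, where the others had 6 or 7. The mice were stated to be male, and the cause of this difference was not tested. All 35 cascade genes are autosomal, but whether the difference reaches autosomal peaks was not tested either. Peaks lay on 2 to 5 of 6 skeletal muscle marker genes per list, on 0 to 3 of 3 endothelial, 0 to 2 of 3 fibroblast, 0 to 3 of 3 macrophage, 0 or 1 of 2 satellite cell and 0 or 1 of 3 cycling cell markers. All 3 macrophage and all 3 endothelial markers were marked in stimulated replicate 2, where the other lists marked no macrophage and at most 1 endothelial gene. Genes of their length would give 2.20 and 2.11 of 3 in that list, and the part of these cells in the results on that list was not tested.

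Cascade genes with an H3S10ph peak numbered 10 and 17 in the unstimulated and 11 and 28 in the stimulated samples. The corresponding shares of all protein-coding genes were 11.9% and 31.2%, and 16.0% and 42.3%. Stimulated replicate 2 alone stood high, while stimulated replicate 1 lay between the unstimulated samples. The means were 13.5 ± 4.95 unstimulated and 19.5 ± 12.0 stimulated (SD, n = 2), and their ratio of 1.44 did not exceed what the replicates differed by (exact two-sided permutation test, p = 0.667). With 2 against 2 samples the smallest p such a test can give is 0.333, so no comparison of single values here can pass 0.05.

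By number of peaks and by length under them, stimulated replicate 2 was again the highest and stimulated replicate 1 at or near the lowest. Peaks on the 35 genes numbered 19 and 31 unstimulated and 17 and 78 stimulated, a ratio of means of 1.9 (exact permutation test, p = 1). They covered 7.47 and 18.2 kb against 8.01 and 43.8 kb, or 0.307% and 0.750% against 0.330% and 1.80% of 2.43 Mb of cascade gene, a ratio of 2.02 (exact permutation test, p = 0.667). In all 3 measures the ratio fell below 1 without stimulated replicate 2, to 0.815, 0.680 and 0.624. Per 10000 peaks of each list, the cascade genes held 20.9 and 9.47 peaks unstimulated and 15.6 and 19.2 stimulated, and stimulated replicate 2 then lay within the unstimulated range.

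**Figure D1:**
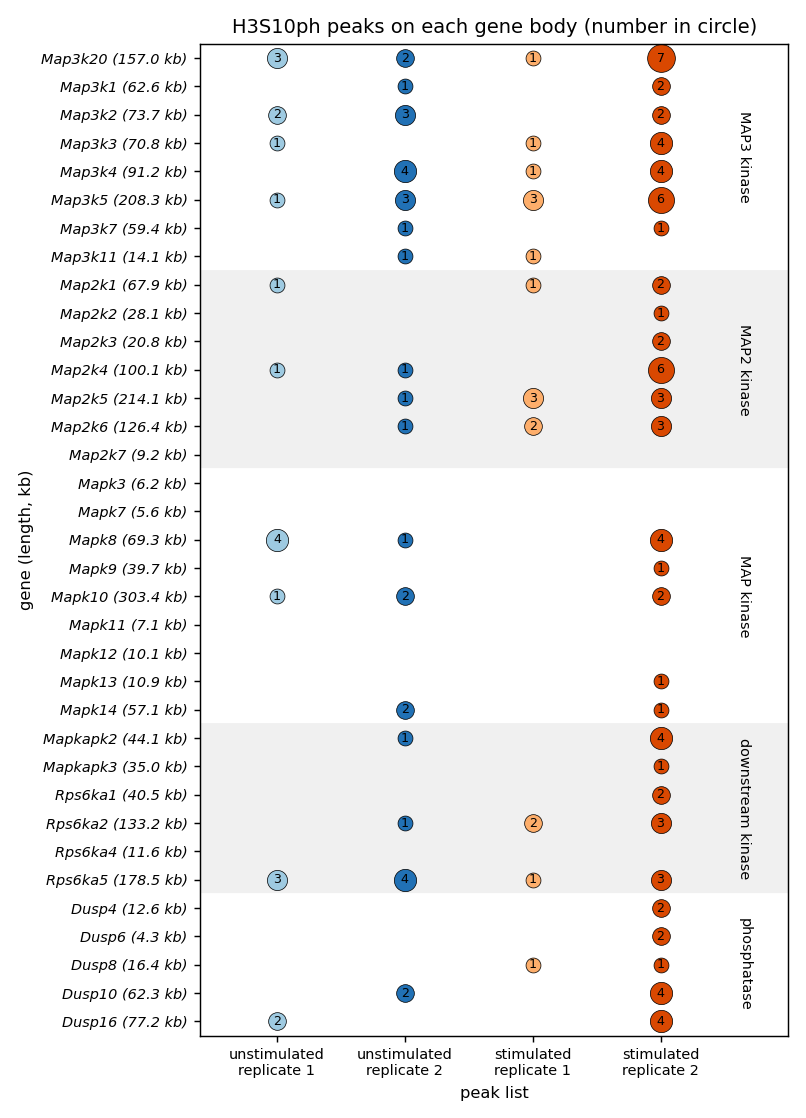
Number of H3S10ph peaks on each of the 35 genes (rows, with gene length in kb) in each of the 4 peak lists (columns); circle area grows with the number printed inside, an empty cell is 0, and shading separates the roles. Stimulated replicate 2 marks 28 genes, and 6 short genes are empty in every column.

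Cascade genes are long, with a median of 57.1 kb (range 4.26 to 303 kb) against 17.4 kb for all protein-coding genes, and long genes meet more peaks. Each was therefore set beside the 200 other protein-coding genes nearest to it in length. Genes of like length would give 6.78 and 16.8 marked genes in the unstimulated and 8.85 and 20.7 in the stimulated lists. The cascade genes thus stood at 1.47 and 1.01 times that number unstimulated and 1.24 and 1.35 times stimulated, and the ranges of the conditions overlapped. By number of peaks the ratios to genes of like length were 1.91 and 0.887 unstimulated and 1.36 and 1.36 stimulated.

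**Figure D2:**
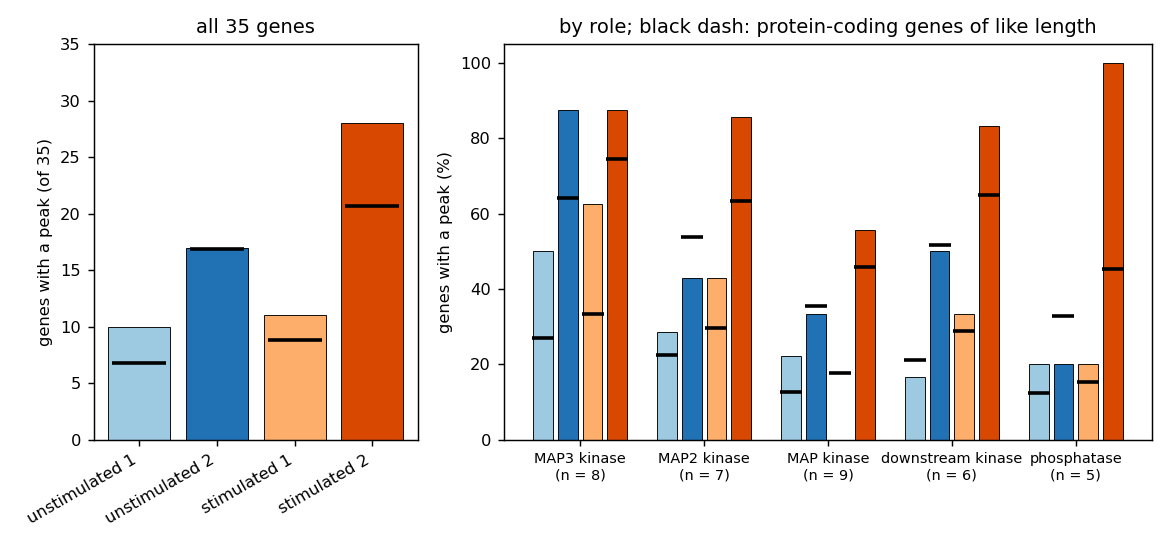
Genes with an H3S10ph peak in each list, as a number of 35 (left) and as a percentage within each role (right); bars are single peak lists and black dashes give the value for protein-coding genes of like length. The 4 bars on the left stand at 10, 17, 11 and 28 over dashes at 6.78, 16.8, 8.85 and 20.7. All 5 phosphatases are marked in stimulated replicate 2, where genes of like length would give 2.26 of 5.

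Over both replicates, 10 cascade genes were marked in both stimulated lists (all protein-coding genes, 12.3%; from genes of like length, 7.36 genes) and 7 in both unstimulated lists (7.95%; 4.81 genes). *Dusp8* was the sole cascade gene marked in both stimulated and neither unstimulated list (2.74%; 1.35 genes), and no cascade gene showed the reverse (0.689%; 0.355 genes). *Map3k20*, *Map3k5* and *Rps6ka5*, which are 157 to 208 kb long, were marked in all 4 lists (4.08%; 2.22 genes). *Map2k7*, *Mapk3*, *Mapk7*, *Mapk11*, *Mapk12* and *Rps6ka4* were marked in none (44.2%; 9.34 genes), and the longest of these is 11.6 kb.

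Cascade genes marked in stimulated lists alone numbered 9 (all protein-coding genes, 20.6%; from genes of like length, 6.85 genes), and 8 of them were marked in stimulated replicate 2 alone (15.6%; 4.79 genes). They were *Map2k2*, *Map2k3*, *Mapk9*, *Mapk13*, *Mapkapk3*, *Rps6ka1*, *Dusp4* and *Dusp6*. A set of 5 genes, *Map3k1*, *Map3k7*, *Mapk14*, *Mapkapk2* and *Dusp10*, was marked in both replicate 2 lists and neither replicate 1 list (9.75%; 5.63 genes). No gene was marked in unstimulated lists alone (9.78%; 3.49 genes). In at least 1 list of each condition, 20 of the 35 were marked (25.4%; 15.3 genes).

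Covered length separated the conditions without overlap for 4 of the 35 genes, *Map3k3*, *Map2k5*, *Rps6ka2* and *Dusp8*, which were higher in both stimulated than in both unstimulated lists (all protein-coding genes, 4.97%). None was lower in both stimulated lists (1.45%). For these counts no share among genes of like length was computed, so they cannot be judged apart from gene length. For *Map3k3* and *Map2k5* the margins between the nearest stimulated and unstimulated values were small, as their values below show.

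Among the MAP3 kinases, 4 and 7 of 8 genes were marked unstimulated and 5 and 7 stimulated, where genes of like length would give 2.16 and 5.14, and 2.68 and 5.96. *Map3k20* encodes ZAK, which senses stalled ribosomes and acts on p38 and JNK. It held 3 and 2 peaks unstimulated and 1 and 7 stimulated, covering 1451 and 570 bp against 1166 and 4126 bp. By covered length stimulated replicate 2 was the highest and unstimulated replicate 2 the lowest. Genes of like length carried on average 0.660 and 2.18 peaks unstimulated and 0.835 and 3.54 stimulated. One intronic region of *Map3k20* was the only one of 144 regions on the 35 genes that 2 lists shared, and it came from 1 unstimulated and 1 stimulated list.

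That region is shown because it is the single place at which peaks of different samples met on a cascade gene. It runs over chr2:72342637-72343215 (mm10), where the unstimulated replicate 2 and stimulated replicate 2 peaks had 49 bases in common. The sequence below is chr2:72342818-72342966 on the plus strand (RefSeq, GRCm38), with the common bases in capitals.
Map3k20 shared region: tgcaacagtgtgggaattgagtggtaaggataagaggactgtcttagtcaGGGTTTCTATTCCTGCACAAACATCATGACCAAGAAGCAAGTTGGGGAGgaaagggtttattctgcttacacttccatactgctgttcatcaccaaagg
All 49 common bases lie in masked repeat sequence, and they occur 4005 times as exact copies in the genome. Reads that map to several places were removed according to the methods of the study, and the part of the repeat in these peaks was not tested.

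*Map3k5* encodes ASK1, a kinase held inactive by thioredoxin until oxidative stress. It held 1 and 3 peaks unstimulated and 3 and 6 stimulated, covering 0.159% and 1.07% against 0.345% and 1.27% of the gene. The ranges overlapped, since unstimulated replicate 2 exceeded stimulated replicate 1. Its stimulated replicate 1 peak with −log10 p of 3.02 lay 83.9% of the way along the gene.

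*Map3k3* encodes MEKK3, an activator of the MEK5 and p38 branches. It held 1 and 0 peaks unstimulated and 1 and 4 stimulated, covering 276 and 0 bp against 345 and 2559 bp. The 4 peaks of stimulated replicate 2 lay between 25.8% and 38.8% of the gene, and one of them had the highest −log10 p of any stimulated peak on the 35 genes, 3.21. *Map3k4*, encoding MEKK4, which GADD45 proteins activate, held 0 and 4 peaks unstimulated and 1 and 4 stimulated, over 0 and 2215 bp against 446 and 1659 bp. Here the unstimulated range enclosed the stimulated one, and the highest −log10 p on the 35 genes, 3.30, belonged to an unstimulated peak in a *Map3k4* intron.

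*Map3k2*, encoding the related MEKK2, held 2 and 3 peaks unstimulated and 0 and 2 stimulated, covering 557 and 982 bp against 0 and 573 bp. Its stimulated values thus lay at or below the middle of the unstimulated ones, with a narrow overlap between 557 and 573 bp. The other MAP3 kinases, *Map3k1*, *Map3k7* (TAK1) and *Map3k11* (MLK3), held 0 to 2 peaks in each list.

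Among the MAP2 kinases, 2 and 3 of 7 genes were marked unstimulated and 3 and 6 stimulated, where genes of like length would give 1.58 and 3.76, and 2.08 and 4.44. *Map2k3* and *Map2k6* encode MKK3 and MKK6, the activators of p38. *Map2k6* held 0 and 1 peaks unstimulated and 2 and 3 stimulated, covering 0 and 672 bp against 520 and 1521 bp. Peak number separated the conditions and covered length did not. One *Map2k6* peak of stimulated replicate 2 (−log10 p 3.03) was the single one of 145 peaks on the 35 genes with a −log10 q above 0, and at 0.00498 that value was still far from significance after the peak caller's correction for multiple tests. *Map2k3*, 20.8 kb long, held 0, 0, 0 and 2 peaks in unstimulated replicates 1 and 2 and stimulated replicates 1 and 2. They covered 712 bp in that last list, in which 37% of genes of like length had a peak.

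*Map2k5* encodes MEK5, the activator of ERK5. It held 0 and 1 peaks unstimulated and 3 and 3 stimulated, covering 0 and 829 bp against 1251 and 1389 bp. Both stimulated values exceeded both unstimulated values, but none of its stimulated peaks overlapped each other. At 214 kb *Map2k5* is among the longest of the 35, and genes of like length carried on average 4.77 peaks in stimulated replicate 2.

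*Map2k4*, encoding the JNK kinase MKK4, held 1 and 1 peaks unstimulated and 0 and 6 stimulated, covering 244 and 893 bp against 0 and 3716 bp. The stimulated samples thus lay on either side of the unstimulated ones. *Map2k1* (MEK1) held 1 and 0 peaks unstimulated and 1 and 2 stimulated, covering 424 and 0 bp against 408 and 462 bp, so that 1 stimulated value lay within the unstimulated range. *Map2k2* (MEK2) held a single peak in stimulated replicate 2 and *Map2k7* (MKK7) none.

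Among the MAP kinases themselves, 2 and 3 of 9 were marked unstimulated and 0 and 5 stimulated, where genes of like length would give 1.15 and 3.20, and 1.60 and 4.13. *Mapk8* encodes JNK1. It held 4 and 1 peaks unstimulated and 0 and 4 stimulated, covering 1229 and 695 bp against 0 and 2721 bp. By covered length the stimulated samples were the extremes. *Mapk10*, the mainly neural JNK3 and the longest of the 35 genes, held 1 and 2 peaks unstimulated and 0 and 2 stimulated, fewer than the 1.12 and 4.48, and 1.41 and 5.76 of genes of like length. Its peaks covered 347 and 1211 bp against 0 and 1465 bp, with the stimulated samples as the extremes. *Mapk9* (JNK2) held 1 peak, in stimulated replicate 2.

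*Mapk14* encodes p38α, the broadly expressed p38 isoform. It held 0 and 2 peaks unstimulated and 0 and 1 stimulated, covering 0 and 1261 bp against 0 and 987 bp, so that each condition had 1 marked and 1 unmarked sample. The short genes *Mapk11* (p38β) and *Mapk12* (p38γ, abundant in skeletal muscle) had no peak in any list, and *Mapk13* (p38δ) had 1, in stimulated replicate 2. *Mapk3* (ERK1) and *Mapk7* (ERK5) had none. Of genes as short as *Mapk12*, 2.5% to 26% had a peak, depending on the list.

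The genes of MSK1 and MSK2, the H3S10 kinases of the cascade, showed no peak gained by both stimulated samples. *Rps6ka5* (MSK1) held 3 and 4 peaks unstimulated and 1 and 3 stimulated, covering 1549 and 2151 bp against 472 and 1848 bp. Its lowest value by either measure was stimulated replicate 1 and its highest unstimulated replicate 2. Genes of like length carried 0.760 and 2.90 peaks unstimulated and 1.04 and 4.14 stimulated. *Rps6ka4* (MSK2), 11.6 kb long, had no peak in any list, and between 2% and 27% of genes of like length had one.

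Of all 6 kinases downstream of MAP kinases, 1 and 3 were marked unstimulated and 2 and 5 stimulated, where genes of like length would give 1.28 and 3.10, and 1.74 and 3.90. Among those other than MSK1 and MSK2, *Rps6ka2* encodes RSK3, a ribosomal S6 kinase activated by ERK. It held 0 and 1 peaks unstimulated and 2 and 3 stimulated, covering 0 and 448 bp against 981 and 2645 bp. Both stimulated values lay above both unstimulated values. Genes of like length averaged 0.555 and 1.73 peaks unstimulated and 0.550 and 3.22 stimulated. *Mapkapk2*, encoding MK2, the main substrate kinase of p38, held 0 and 1 peaks unstimulated and 0 and 4 stimulated, one of them over its start. *Rps6ka1* (RSK1) held 2 peaks and *Mapkapk3* (MK3) 1 peak, all in stimulated replicate 2.

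Among the phosphatases, 1 and 1 of 5 genes were marked unstimulated and 1 and 5 stimulated, where genes of like length would give 0.625 and 1.645, and 0.77 and 2.26. The phosphatase genes held 2 and 2 peaks against 1 and 13, where genes of like length would carry 0.810 and 2.51, and 0.960 and 4.32. The large value belonged to stimulated replicate 2 alone. In that list *Dusp6*, encoding an ERK phosphatase and the shortest of the 35 genes at 4.26 kb, was covered over 20.4% of its length, and 7.5% of genes of like length had a peak. *Dusp4*, encoding a nuclear MAP kinase phosphatase, was covered over 7.41% in the same list. Neither had a peak in the other 3 lists. *Dusp10* and *Dusp16*, which encode phosphatases that prefer p38 and JNK, held 0 and 2 against 0 and 4 peaks and 2 and 0 against 0 and 4 peaks.

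*Dusp8* encodes a phosphatase that acts on JNK and p38. The gene lies at chr7:142079490-142095843 on the minus strand (mm10) and had no peak in either unstimulated list. Stimulated replicate 1 had a peak of 946 bp in an intron (chr7:142091138-142092083, 2.36-fold over input, −log10 p 2.89), covering 5.78% of the gene. Stimulated replicate 2 had a peak of 2003 bp near the start (chr7:142093399-142095401, 2.40-fold, −log10 p 2.93), covering 12.2%. The peaks did not overlap, and 1315 bp lay between them. Of genes of like length, 10.0% had a peak in the one list and 32.5% in the other.

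**Figure D3:**
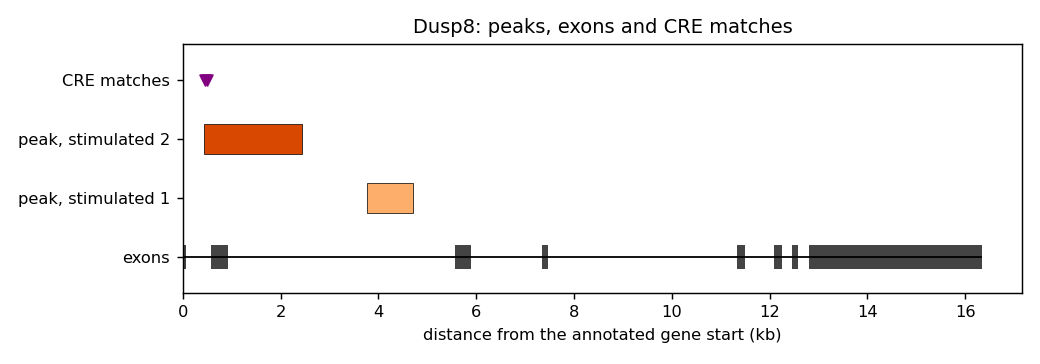
Peaks of the 2 stimulated lists on *Dusp8*, with exons (black) and matches of the letters TGACGTCA (triangles, which overlie each other at this scale), along the distance from the GENCODE start in kb. The peak of replicate 2 lies at 0.442 to 2.44 kb and that of replicate 1 at 3.76 to 4.71 kb, without overlap.

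The sequence before the RefSeq start of *Dusp8* is shown because it holds the letters TGACGTCA, the cyclic AMP response element (CRE) that CREB binds, a transcription factor which MSK1 and MSK2 phosphorylate. The letters were searched on both strands of the 250 bases before each RefSeq start, and they were present in 2 of 44 windows of 32 cascade genes (*Dusp8* and *Mapk10*) and in 1.55% of 32851 windows of all genes. *Dusp8* had them at 107 and 63 bases before its RefSeq start, which lies 559 bp inside the GENCODE gene used for the peaks, so that both matches fall after the GENCODE start (0.452 and 0.496 kb along the gene), and both are inside the peak of stimulated replicate 2, and 0.0304% of all windows held at least 2 matches. TGACG, the first part of TGACGTCA, was, on either strand, present in 31.8% of the cascade windows and 17.8% of all windows. TGACTCA, the AP-1 motif, was present on either strand in 2.27% and 4.46%. The CArG motif of serum response factor, a run of A or T between CC and GG, was present in 0% and 1.47%. A match is a description of the letters and not of a bound site.

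Promoter windows, from 250 bases before to 50 after the RefSeq start, met a peak for 0 of 44 cascade windows in each of the lists except stimulated replicate 2, where 4 did (*Mapkapk2*, *Rps6ka1*, *Dusp6* and *Dusp8*, 9.09%). Over all genes the shares were 0.0822% and 0.901% unstimulated and 0.472% and 2.79% stimulated. These 4 upstream sequences are shown because they are the cascade promoters under H3S10ph peaks, each in the direction of the gene (RefSeq, GRCm38), and capitals mark matches of TGACG on either strand, which join where the whole CRE stands. They lie at chr7:142095285-142095534 (minus strand), chr10:99262981-99263230 (plus strand), chr1:131097844-131098093 (minus strand) and chr4:133887798-133888047 (minus strand), in the order printed.
Dusp8: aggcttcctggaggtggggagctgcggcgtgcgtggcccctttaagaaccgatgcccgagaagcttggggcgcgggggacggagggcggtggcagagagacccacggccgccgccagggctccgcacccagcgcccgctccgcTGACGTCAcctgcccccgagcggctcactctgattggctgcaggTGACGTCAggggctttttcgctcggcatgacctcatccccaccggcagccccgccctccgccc
Dusp6: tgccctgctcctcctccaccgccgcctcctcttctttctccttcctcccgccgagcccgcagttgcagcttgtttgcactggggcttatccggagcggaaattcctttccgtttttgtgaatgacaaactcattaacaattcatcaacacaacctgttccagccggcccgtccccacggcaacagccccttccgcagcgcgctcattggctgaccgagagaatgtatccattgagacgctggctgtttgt
Mapkapk2: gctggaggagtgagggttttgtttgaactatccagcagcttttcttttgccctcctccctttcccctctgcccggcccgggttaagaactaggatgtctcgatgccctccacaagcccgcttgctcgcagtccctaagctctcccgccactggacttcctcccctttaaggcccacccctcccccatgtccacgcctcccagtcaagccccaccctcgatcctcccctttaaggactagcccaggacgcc
Rps6ka1: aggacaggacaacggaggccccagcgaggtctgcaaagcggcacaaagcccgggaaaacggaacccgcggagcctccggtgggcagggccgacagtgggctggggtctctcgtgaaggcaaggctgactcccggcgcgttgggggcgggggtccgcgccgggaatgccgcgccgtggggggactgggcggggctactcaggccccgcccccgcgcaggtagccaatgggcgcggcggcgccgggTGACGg
*Dusp8* alone of these 4 holds the whole CRE, *Rps6ka1* holds TGACG once, next to its start, and *Dusp6* and *Mapkapk2* hold neither. The peaks covered 117 of the 250 bases for *Dusp8*, 94 for *Dusp6* and all 250 for *Mapkapk2* and *Rps6ka1*.

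The centre of the intronic *Dusp8* peak of stimulated replicate 1 is shown for comparison with the RefSeq start of the same gene (chr7:142091510-142091709, minus strand, 54.0% GC against 71.6% in the upstream window).
Dusp8 intron: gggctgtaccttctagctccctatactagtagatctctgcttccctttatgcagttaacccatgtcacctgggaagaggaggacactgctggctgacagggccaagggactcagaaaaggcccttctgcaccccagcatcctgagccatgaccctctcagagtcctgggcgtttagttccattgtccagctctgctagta

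Most peaks on the cascade genes were intronic, 15 of 19 and 22 of 31 unstimulated and 15 of 17 and 56 of 78 stimulated. Peaks within 1000 bp of an annotated transcript start numbered 1 and 3 unstimulated and 0 and 8 stimulated, or 5.26% and 9.68%, and 0% and 10.3%. On all other protein-coding genes the shares near a start were 6.21% and 9.37%, and 11.6% and 14.8%. The cascade genes lay below the other genes in both stimulated lists and in unstimulated replicate 1, but these other genes were not matched on length. Genes with a peak within 1000 bp of a start, on either side of it, numbered 1 and 2 unstimulated (all protein-coding genes, 1.39% and 7.01%) and 0 and 9 stimulated (3.17% and 16.5%). Their ratios to genes of like length were 1.67 and 0.628 unstimulated and 0 and 1.31 stimulated, so that no steady deficit near starts was seen.

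**Figure D4:**
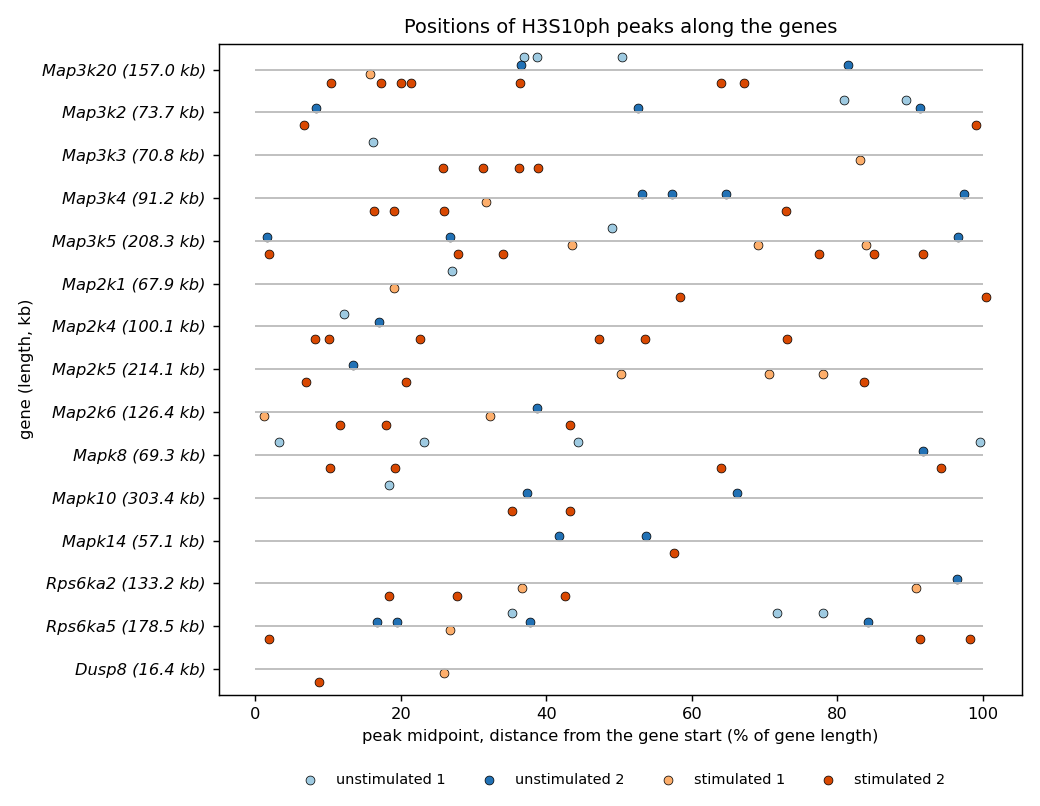
Midpoint of each H3S10ph peak along 15 of the genes, as percent of gene length from the annotated start, with 1 colour per list. Midpoints are spread over the gene bodies, and peaks of different lists touch only in *Map3k20* at about 36.6%.

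Peaks of different samples seldom met on these genes. Of 144 merged regions, 143 came from 1 list, and the shares of peaks overlapping a peak of another list were 0% and 3.23% unstimulated and 0% and 1.28% stimulated, against 6.17% and 5.15%, and 7.86% and 3.69% on other genes. A gene counted as marked in both replicates, *Dusp8* included, was therefore marked at different places in the replicates. Peaks within 1000 bp of a peak of another list, a distance chosen after the data were seen, lay on *Map3k20*, *Map3k2*, *Map3k5*, *Map3k11* and *Dusp10*, and none of these pairs joined both stimulated lists. They made up 5.26% and 16.1% of the cascade peaks unstimulated and 5.88% and 5.13% stimulated, against 14.5% and 11.3%, and 17.0% and 8.42% on other genes.

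The peaks on the cascade genes were weak. Fold enrichment over input ranged from 2.01 to 2.53, with medians of 2.23 and 2.08 unstimulated and 2.23 and 2.12 stimulated, close to the 2.25 and 2.09, and 2.27 and 2.09 of the whole lists. The methods of the study state a cut-off of 0.001, a −log10 p of 3, but not how deposited values relate to it in broad mode. A deposited −log10 p of at least 3 was reached by 1 and 1 peaks unstimulated and 1 and 3 stimulated. These were on *Mapk8* and *Map3k4* in the unstimulated lists, on *Map3k5* in stimulated replicate 1, and on *Map3k3*, *Map2k6* and *Mapkapk2* in stimulated replicate 2. The share reaching 3 was 5.26% and 5.88% in the replicate 1 lists, against 12.9% and 17.7% of the whole lists, and 3.23% and 3.85% in the replicate 2 lists, against 2.93% and 3.22%. With peaks below 2.5 left out, 8 and 3 genes were marked unstimulated (all protein-coding genes, 8.26% and 8.77%) and 7 and 14 stimulated (11.5% and 14.1%). With peaks below 3 left out, 1 and 1 genes were marked unstimulated (all protein-coding genes, 2.16% and 1.82%) and 1 and 3 stimulated (3.66% and 3.20%), and no gene was marked in both lists of a condition.

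**Figure D5:**
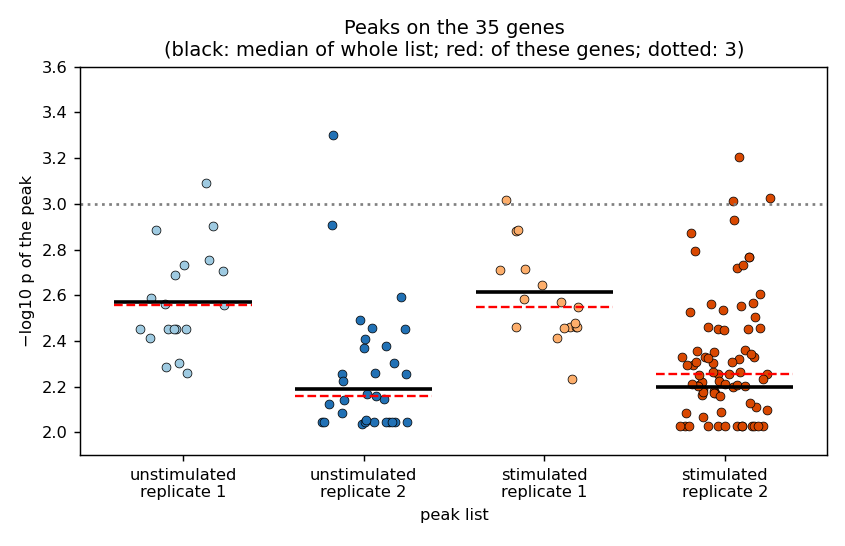
−log10 p of each peak on the 35 genes in the 4 lists (points, with horizontal scatter for legibility), with the median of the whole list (black), the median on these genes (red, dashed) and the value 3 (dotted). Of 145 points, 6 lie above 3, and the medians on these genes stay near those of their lists.

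When each list was shortened to its 9094 highest peaks by −log10 p, the length of the shortest list, 10 and 8 cascade genes were marked unstimulated and 11 and 17 stimulated. By this count the groups then did not overlap (exact permutation test, p = 0.333, the smallest possible). Of all protein-coding genes, 11.9% and 13.1%, and 13.8% and 17.0% were marked in these shortened lists, so that their conditions did not overlap either. Against genes of like length the ratios became 1.48 and 1.10 unstimulated and 1.45 and 1.86 stimulated. By the other 2 measures the conditions did overlap in the shortened lists. Peaks on the cascade genes numbered 19 and 9 unstimulated and 14 and 22 stimulated (exact permutation test, p = 0.667). They covered 7467 and 5733 bp against 6796 and 10485 bp (exact permutation test, p = 0.667). The genes marked in both stimulated and neither unstimulated list were then *Map2k6*, *Rps6ka2* and *Dusp8*. The share of all protein-coding genes with this pattern was not computed for the shortened lists, so their number cannot be judged against it.

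A wider list of 66 other genes of the pathway, such as further MAP3 kinases, scaffolds and phosphatases, was also chosen with earlier results known. It had 7 and 26 marked genes unstimulated and 18 and 40 stimulated, where genes of like length would give 10.5 and 27.4, and 13.7 and 35.6. Of these, 17 were marked in both stimulated lists (all protein-coding genes, 12.3%; from genes of like length, 11 genes) and 3 in both unstimulated lists (7.95%; 6.85 genes), and 5 were marked in both stimulated and neither unstimulated list (2.74%; 2.4 genes). The 5 were *Nlk*, *Tab2*, *Gadd45g*, *Mknk2* and *Nek6*, and none showed the reverse. *Gadd45g*, whose product activates MEKK4, was covered over 0% and 0% of its 1.79 kb unstimulated and 94.8% and 79.7% stimulated, so that its stimulated peaks overlapped, unlike those of *Dusp8*. *Mknk2*, a kinase activated by ERK and p38, was covered over 0% and 0% against 1.85% and 22.4%. Of 9 H3S10 kinase genes outside the cascade, such as those of the Aurora kinases, 1 and 2 were marked unstimulated and 1 and 2 stimulated, where genes of like length would give 0.925 and 2.85, and 1.28 and 4.11. *Nek6*, named above as marked in both stimulated and neither unstimulated list, is one of these 9.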

How the data were processed

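H3S10ph ChIP-seq was available for 2 unstimulated and 2 stimulated pools of mouse gastrocnemius, as 1 broad peak list per sample. According to the methods and processing notes of the study, the authors aligned reads to mm10 (BWA 7.12), removed reads mapping to several places, down-sampled replicates to the smallest one, and used MACS2 2.1.1 in broad mode with a p-value cut-off of 0.001 and input DNA on each sample. The deposited values used are the fold enrichment over input (a ratio) and the −log10 p-value and q-value of each peak. The deposited lists reach down to −log10 p of about 2.00 (2.0011 in stimulated replicate 2), below the 3 to which that cut-off corresponds. How the deposited values relate to the cut-off in broad mode is not stated, so a value below 3 does not show that a peak failed it. No read counts were used here, and the depth behind a peak is unknown.

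Gene bodies, exons and starts came from GENCODE release M21 (mm10), for 21911 protein-coding genes off the mitochondrial chromosome. RefSeq promoter windows (GRCm38.p6) matched 32 of the 35 cascade genes. Genes of like length were the 200 nearest on the log scale, used as a description without a test. Per-list totals were compared by exact two-sided permutation tests in Python 3.11.15 with scipy 1.17.1, after the procedure was tested on simulated data. Replicates are separate pools, and no label says which stimulated and unstimulated pools share mice. Described with all values were genes marked in both lists of a condition or in at least 3 lists, plus *Rps6ka5*, *Rps6ka4*, *Mapk14*, *Map2k3* and *Map2k6*, which the study concerns. The alternatives were peak thresholds, equal list lengths, overlap rules, gene regions, division by list length, numbers of genes of like length, single samples left out and a replicate block. The cascade genes and the other lists were chosen with earlier results of these data known.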

Additional observations from a re-analysis of the deposited data

How the results depend on the processing

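Of 98 recomputed values, 3 reversed, 18 moved and 77 did neither, which for the stimulated over unstimulated ratios means only that the direction held. Some of these ratios changed by more than 1.5 times: for covered length to 3.66 with −log10 p of at least 3, to 1.31 with lists of equal length and to 1.27 per bp under all peaks of the list, for peaks to 1.15 per peak of the list, and for marked genes to 3 in promoters alone. Leaving out 1 sample at a time moved the stimulated over unstimulated ratio from 0.815 to 2.07 for marked genes, 0.680 to 3.12 for peaks and 0.624 to 3.47 for covered length, and the lowest values, all without stimulated replicate 2, reversed the direction. The ratio to genes of like length then ranged from 1.24 to 1.35 stimulated and from 1.01 to 1.47 unstimulated. Such a ratio counted as moved only if it shifted by more than the SD of its 2 lists, 0.329 unstimulated and 0.0785 stimulated. Leaving out 1 of 2 lists cannot shift it that far, so there its label was fixed beforehand. The wider unstimulated limit also left more room for a shift that did not count. With −log10 p of at least 2.5, 6 genes were marked in both stimulated lists, 2 of them (*Map2k6* and *Dusp8*) in neither unstimulated list, and 0 in both unstimulated lists, and the stimulated ratio to genes of like length was 1.48. With at least 3, these values were 0, 0, 0 and 1.08. With lists of equal length, 3 genes were marked in both stimulated and neither unstimulated list, 4 in both unstimulated lists, and the ratio was 1.66. Genes extended by 5000 bp gave a ratio of 1.19. Exons alone gave 1 gene in both stimulated and 2 in both unstimulated lists, and the 1 gene, in neither unstimulated list, was *Map3k5* and not *Dusp8*. Promoters alone gave 0 genes in both stimulated lists, 0 of them specific, 0 in both unstimulated lists and a ratio of 0.653. That ratio is the mean of 0 in stimulated replicate 1 and 1.31 in stimulated replicate 2. The unstimulated ratio to genes of like length was 1.18 with −log10 p of at least 2.5, 0.960 with at least 3 and 1.29 with lists of equal length. It was 1.18 with genes extended by 5000 bp and 1.15 in promoters alone. In exons alone it was 1.57 against 1.35 stimulated, so in exons and in promoters the unstimulated ratio was the higher. The cause of these shifts was not tested, beyond the fewer peaks or shorter regions that the thresholds, exons and promoters leave. For the numbers of genes marked in both lists of a condition under these settings, no share of all protein-coding genes was computed. With a replicate block, the ratios were 1.35, 1.5 and 1.61 for marked genes, peaks and covered length (exact permutation within pairs, p = 0.5, 1 and 0.5). With 2 pairs, 0.5 is the smallest p that this permutation can give, so it cannot decide the question. The pairing by number rests on 2 pairs whose deviations in covered length correlated at 0.177 over the cascade genes and 0.490 over all genes, and it is not stated to mark shared mice. The rise within number 1 was 1.10 for marked genes, 0.895 for peaks and 1.07 for covered length, and within number 2 it was 1.65, 2.52 and 2.41.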

Other observations

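Many peaks on the cascade genes carried the single commonest fold value of their list. That value was 2.21 and 2.02 in the unstimulated and 2.21 and 2.01 in the stimulated lists, and 5 and 9, and 4 and 12 cascade peaks held it to within 1e-05, or 26.3% and 29.0%, and 23.5% and 15.4%. In the whole lists the shares were 16.8% and 23.5%, and 12.5% and 20.1%. The base composition of the peaks differed between lists, with median GC contents of 38.6% and 46.9% unstimulated and 48.0% and 45.3% stimulated, against 44.2% for the gene bodies. Unstimulated replicate 1 was the lowest. The median width was 358 and 567 bp unstimulated and 345 and 493 bp stimulated.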
